A study of Silurus asotus with 15 samples.

Results

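C0J50_04847 and C0J50_15525 are a pair of genes of the Amur catfish, Silurus asotus, that the annotation names gastrula zinc finger protein XlCGF28.1-like. They were chosen by locus tag, with their levels in the barbels and skin already known from these same libraries, so their levels are given as a description and not as a test. They are 2 of the 25089 genes measured, and 2 of the 204 loci that carry this product name. A further 34 loci carry another gastrula zinc finger name, which makes 238 gastrula loci in all. The series holds poly(A) RNA sequencing of adult fish, with 1 paired-end library from each of 15 tissues. The tissues are mandibular barbel, maxillary barbel, skin, skeletal muscle, brain, pituitary, gill, heart, liver, pancreas, kidney, head kidney, spleen, ovary and testis. Barbels are the whisker-like feelers around the mouth, which carry taste buds. No treatment or genotype is given, and neither the number of fish nor their sex is stated. With 1 library per tissue no value has a replicate error, no difference could be tested, and a difference between tissues cannot be told apart from a difference between fish or preparations.

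Proteins of the classical C2H2 zinc finger type bind DNA through repeated loops that each hold a zinc ion between cysteines and histidines, and many act as transcription factors. The XlCGF names come from complementary DNAs cloned from gastrulae of the frog Xenopus laevis, and automatic annotation passes such a name to a new gene by sequence similarity. Reverse transcriptase copies RNA into DNA and is encoded by retroelements, mobile sequences that exist in many similar copies in fish genomes. AlkB proteins are dioxygenases that remove or add chemical groups on nucleic acids. An AlkB N-terminal domain is annotated beside the reverse transcriptase in many of the loci described here. The annotation names it the N-terminal domain of AlkB homologue 8, and it is called the AlkB domain below. Whether these loci encode an active dioxygenase was not examined.

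The product name of the pair was set against the protein domains that the annotation lists for the same loci, and the domains went against the name. None of the 204 XlCGF28.1-like loci carried a C2H2 zinc finger domain. A reverse transcriptase domain was listed for 187 of them (91.7%), and an AlkB homologue N-terminal domain for 200 (98.0%). Both were listed for 186 loci, 14 had the AlkB domain without the reverse transcriptase, and 3 had no listed domain. Over all 25122 annotated loci, 1.72% carried the reverse transcriptase domain and 0.916% the AlkB N-terminal domain. All 34 loci with the other gastrula names (XlCGF57.1-like, XlCGF8.2DB-like and similar) carried the C2H2 domain, and none carried either of the other domains. The XlCGF28.1-like loci are therefore called by their product name here, and not zinc finger genes. C0J50_04847 carried both the reverse transcriptase and the AlkB domain, whereas C0J50_15525 carried the AlkB domain alone.

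**Figure D1:**
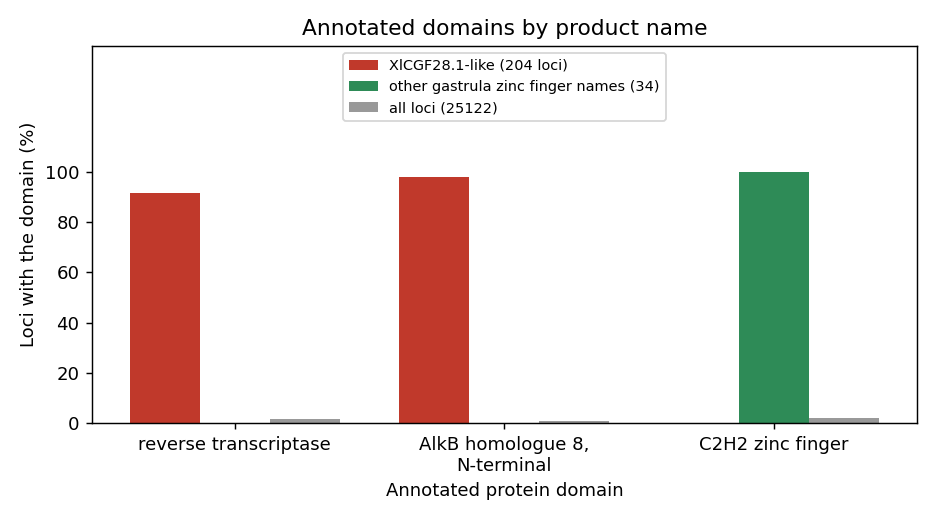
Share of loci (percent) that carry each annotated domain, in the 204 XlCGF28.1-like loci, the 34 loci with other gastrula zinc finger names and all 25122 loci. The reverse transcriptase bar stands at 91.7% for XlCGF28.1-like loci, while the C2H2 bar stands at 100% for the other gastrula names and at 0 for XlCGF28.1-like loci.

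The pair differed in structure. C0J50_04847 lies on scaffold360 at positions 552774 to 555176, on the plus strand of the assembly that the deposited annotation uses. It is a single coding exon of 2403 bases, or 800 codons without the stop, and 40 of the 204 XlCGF28.1-like loci are longer. C0J50_15525 lies on scaffold178137 at positions 3157278 to 3158653, on the minus strand. It has 2 coding exons of 142 and 425 bases, separated by an intron of 809 bases. Its 567 coding bases give 188 codons, and 7 of the 204 loci are shorter. Coding lengths over the 204 loci ran between 207 and 5052 bases with a median of 1413 bases, and 99 loci had a single exon. They were spread over 132 scaffolds, with at most 6 on any of them. One further XlCGF28.1-like locus, C0J50_04869, shares scaffold360 with C0J50_04847, and its highest level was 0.0743 FPKM, in testis. FPKM, the unit of every level given here, is the number of fragments of a gene scaled by its length and by the size of the library.

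Some facts about the libraries touch every value that follows. The libraries labelled brain and gill carried each other's markers. SNAP25, a protein of synaptic vesicle release that is abundant in neurons, stood at 0.0938 FPKM in the library labelled brain and reached 1658.7 FPKM in that labelled gill. The neuron list of 3 genes summed to 0.871 FPKM in the library labelled brain, against 2494.9 FPKM in that labelled gill. Its member synaptotagmin-1 went the other way, at 0.777 FPKM under the brain label and listed at 0 under the gill label. The summed level of 2 ionocyte markers, genes of the salt- and ammonia-transporting cells of the gill, was 350.7 FPKM in the library labelled brain, against 0.106 FPKM in that labelled gill. Both libraries are kept under their labels, and which libraries led for each of the pair is also given without them. Correlations and counts over all 15 libraries include them. The smallest step between low values, an estimate of what 1 fragment is worth, was 4.33 to 6.52 times the smallest in muscle, skin and both barbels, and lay close to the smallest in the other 11 libraries. Values in those 4 libraries therefore rest on fewer fragments.

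C0J50_04847, the intronless locus with the reverse transcriptase domain, was high in 4 libraries and close to 0 in the other 11. Its level was 1401.5 FPKM in mandibular barbel, where it ranked 35th among all genes. It was 402.9 FPKM in spleen, 353.3 FPKM in the library labelled brain and 326.2 FPKM in that labelled gill. Spleen and the libraries labelled brain and gill lay within 1.23-fold of one another, and mandibular barbel stood 3.48-fold above spleen. On the log2(FPKM + 1) scale that last gap was 1.80. After rescaling the libraries by median ratios the library labelled gill came next, and the gap to it was 2.62. The other 11 libraries lay between 0.0140 FPKM in liver and 0.264 FPKM in skin. Among them maxillary barbel had 0.0673 FPKM, ovary 0.222 FPKM, testis 0.0625 FPKM, kidney 0.0329 FPKM and head kidney 0.0302 FPKM. No library lay in between, and the lowest of the 4 high libraries was 1234-fold above the highest of the 11 low ones. By the estimated step, the level in mandibular barbel came to about 28707 fragments and that in spleen to about 44058, against about 1.24 fragments in maxillary barbel and 5.41 in skin. With the libraries labelled brain and gill left out, mandibular barbel and spleen remained high and the other 11 libraries low.

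**Figure D2:**
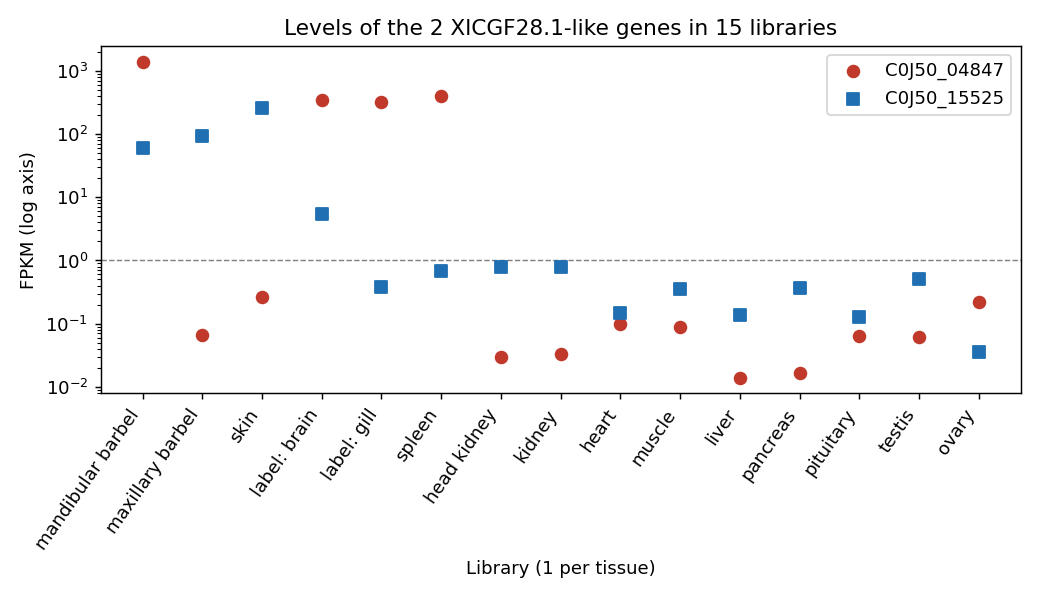
Level of C0J50_04847 and C0J50_15525 (FPKM, logarithmic axis) in each of the 15 libraries, 1 point per library. C0J50_04847 stands at 326.2 FPKM or more in 4 libraries and at 0.264 FPKM or less in 11, and C0J50_15525 is highest in skin and both barbels.

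Few genes shared this split of libraries, which was taken from the levels of C0J50_04847 itself. That gene was thus sure to be among those counted, and the counts describe the split without testing it. Of 16949 genes at 5 FPKM or more in some library, 5 (0.0295%) had mandibular barbel, spleen and the libraries labelled brain and gill all at 5 FPKM or more and all above the 11 others. C0J50_04847 was 1 of the 5, and in the other 4 the lowest of the high libraries was at most 1.13-fold above the highest of the low ones. C0J50_04847 was the only gene of 25089 with 5 FPKM or more in those 4 libraries and under 1 FPKM in the 11 others. None of 11 lists of cell type markers had its summed level higher in those 4 libraries than in all the others, and no other XlCGF28.1-like locus at 1 FPKM or more did.

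Most neighbouring loci of C0J50_04847 were low in the barbels. The 5 loci upstream, at a distance of 16164 bases for the nearest, are annotated as ADP-ribosyltransferases, enzymes that attach ADP-ribose to other proteins, and all 5 were under 1 FPKM in both barbels. Downstream, C0J50_04848, annotated as a NACHT, LRR and PYD domains-containing protein, begins after a gap of 71681 bases. It had 0.553 FPKM in mandibular barbel and 0.595 FPKM in maxillary barbel. The fifth locus downstream, C0J50_04852, an arginine/serine-rich splicing factor, had 59.5 FPKM in mandibular barbel and 55.7 FPKM in maxillary barbel. Of the 10 neighbours, 9 were under 1 FPKM in both barbels. Most genes were low there too, since 43.6% of all genes reached 1 FPKM in mandibular barbel and 43.4% in maxillary barbel. The ADP-ribosyltransferases C0J50_04842 at 15.3 FPKM, C0J50_04844 at 5.596 FPKM and C0J50_04845 at 2.54 FPKM were highest in spleen, as was C0J50_04848 at 3.001 FPKM. Their levels followed C0J50_04847 little, with Pearson correlations of log2(FPKM + 1) between 0.056 and 0.302 over the 15 libraries. C0J50_04842 also had 14.1 FPKM in kidney and 8.58 FPKM in head kidney, where C0J50_04847 was low. C0J50_04849, annotated as caskin-2, was highest in the library labelled brain, at 13.2 FPKM.

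Differences between libraries were taken on the log2(FPKM + 1) scale, and a gene was counted as different where it differed by at least 2 (4-fold) and its higher library had 5 FPKM or more. C0J50_04847 differed by 10.36 between mandibular and maxillary barbel and ranked 1st of 5495 genes compared. By the same rule 0.946% of the genes compared differed between the barbels, 0.382% being higher in mandibular barbel and 0.564% higher in maxillary barbel. The contrast was among the values that chose the pair, so nothing is read from these shares about it. The gene next in size of difference, the hypothetical protein C0J50_02292, had 0.328 FPKM in mandibular barbel and 69.7 FPKM in maxillary barbel, a difference of -5.73. C0J50_11557, interferon-induced protein 44, was listed at 0 in mandibular barbel and had 18.8 FPKM in maxillary barbel. C0J50_19121, an MHC class II alpha chain used in antigen presentation, had 0.0121 FPKM in mandibular barbel and 16.1 FPKM in maxillary barbel. Of the neighbours of the pair, only C0J50_04852 and C0J50_15524 reached 5 FPKM in a barbel and could be compared, and neither passed the rule.

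C0J50_15525 had 59.9 FPKM in mandibular barbel and 94.3 FPKM in maxillary barbel, a difference of -0.65 that the rule did not count.

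**Figure D3:**
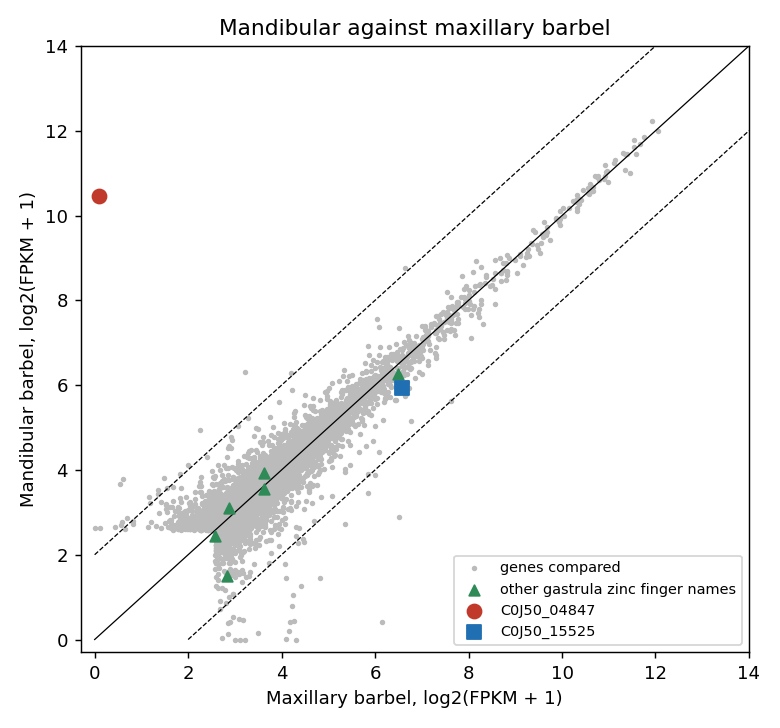
Level in mandibular barbel (vertical) and maxillary barbel (horizontal), as log2(FPKM + 1), for the 5495 genes at 5 FPKM or more in either barbel. The pair is marked, as are the loci with other gastrula zinc finger names among these genes. C0J50_04847 stands alone at the upper left, 10.36 above the line of equal levels, and C0J50_15525 lies 0.65 below that line.

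The barbels also differed in marker levels, given here as summed FPKM. Keratinocyte markers, made by the epithelial cells of the surface, stood at 2322 in mandibular barbel and 3101 in maxillary barbel. Most of both sums was keratin 4, at 2047 in mandibular barbel and 2823 in maxillary barbel. Desmoplakin went the other way, at 81.4 in mandibular barbel and 79.7 in maxillary barbel. Taste cell markers stood at 680.3 in mandibular barbel and 510.3 in maxillary barbel, and mucous cell markers at 101.5 in mandibular barbel and 122.8 in maxillary barbel. Most of the mucous cell sum was mucin-5AC, and mucin-2 went the other way, at 0.902 in mandibular barbel and 0.111 in maxillary barbel. B cell markers stood at 29.6 in mandibular barbel and 3.75 in maxillary barbel. The B cell value is that of C0J50_11631, the highest on average of 99 loci annotated as immunoglobulin light chain. It was 365.6 in spleen, 8.39 in the library labelled brain and 1.80 in that labelled gill. Testis had 125.6 for this locus, but only 0.0625 FPKM of C0J50_04847. Head kidney stood at 83.8, kidney at 73.2 and heart at 26.2, and C0J50_04847 was under 1 FPKM there too. Skeletal muscle markers stood at 56.0 in mandibular barbel and 33.3 in maxillary barbel, but fast troponin T at 2.63 in mandibular barbel and 2.93 in maxillary barbel. Fibroblast markers stood at 33.9 in mandibular barbel and 22.7 in maxillary barbel, but decorin at 0.0134 in mandibular barbel and 0.0701 in maxillary barbel. Erythrocyte globins stood at 24.2 in mandibular barbel and 11.3 in maxillary barbel. Ionocyte, neuron, oocyte and spermatid markers were each under 5 FPKM in sum in both barbels, and of them foxi3, a transcription factor of ionocytes, was at 0 in mandibular barbel. The part of these cell types in the levels of C0J50_04847 was not tested. In bulk tissue, fewer cells of a type and less RNA per cell cannot be told apart.

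Against skin, C0J50_04847 differed by 10.12 in mandibular barbel, with 1401.5 FPKM in mandibular barbel and 0.264 FPKM in skin, and ranked 1st of 5842 genes compared. In maxillary barbel it differed by -0.24 from skin, both libraries being under 1 FPKM. By the rule of size 6.23% of genes differed between mandibular barbel and skin, 3.01% being higher in mandibular barbel and 3.22% higher in skin. Between maxillary barbel and skin 6.05% of genes differed, 3.03% being higher in maxillary barbel and 3.02% higher in skin.

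C0J50_15525, the short locus with the AlkB domain alone, was highest on the body surface. Its level was 258.6 FPKM in skin, 94.3 FPKM in maxillary barbel and 59.9 FPKM in mandibular barbel, resting on about 1249, 409 and 289 fragments by the estimated step. The library labelled brain came next with 5.46 FPKM, about 140 fragments, and mandibular barbel stood 10.97-fold above it. The other 11 libraries lay between 0.0354 FPKM in ovary and 0.794 FPKM in kidney. Head kidney had 0.780 FPKM, spleen 0.672 FPKM, testis 0.511 FPKM and the library labelled gill 0.381 FPKM. With the libraries labelled brain and gill left out, the same 3 libraries led in the same order.

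The levels of C0J50_15525 in mandibular barbel lay below skin by 2.09 on the log2(FPKM + 1) scale, a 4.32-fold gap that the rule of size counted. In maxillary barbel they lay below skin by 1.45, a 2.74-fold gap that it did not count. The difference between the 2 barbels, 1.58-fold, was the smallest among these 3 libraries. With no replicates none of these steps in the order could be set against a spread.

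Keratinocyte markers were high in the libraries where C0J50_15525 was high, and also in the library labelled brain, where C0J50_15525 had 5.46 FPKM. The list was keratin 4, periplakin, envoplakin, desmoplakin and plakophilin-1, an intermediate filament protein and 4 proteins of the cornified envelope and cell junctions. All 5 had both barbels and skin above the 11 libraries that remain when the library labelled brain is set aside. Their summed level was 2322 FPKM in mandibular barbel, 3101 FPKM in maxillary barbel, 2221 FPKM in skin and 1336 FPKM in the library labelled brain, and between 3.04 and 31.2 FPKM in the 11 others. The order within the surface libraries differed, since the marker sum was highest in maxillary barbel and C0J50_15525 was highest in skin. The part of keratinocyte content in the level of C0J50_15525 was not tested. Both barbels and skin were each at 5 FPKM or more and at least 5-fold above every other library in 39 of 25089 genes. The 5-fold gap was taken on the log2(FPKM + 1) scale. C0J50_15525 was 1 of the 39, but its levels there were known when it was chosen, so nothing is read from this.

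C0J50_15525 lies within another gene on the opposite strand. The enclosing gene, C0J50_15524, is annotated as an epithelial chloride channel protein-like locus, with a von Willebrand factor A domain and a calcium-activated chloride channel domain. It spans positions 3147194 to 3173657 of scaffold178137 on the plus strand, with 14 coding exons and 2700 coding bases. C0J50_15525 falls in its intron 12, from 3154789 to 3172087, the longest of its introns at 17299 bases. The flanking exons of C0J50_15524 are 2489 and 13434 bases away, so the coding exons of the 2 genes do not overlap. The sources used here do not give whether the counting used strand, so reads from C0J50_15525 and unspliced reads from the intron around it may not have been told apart.

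**Figure D4:**
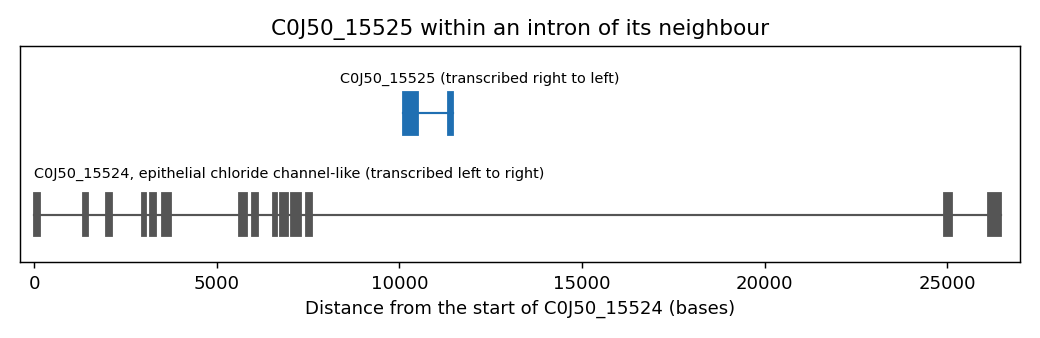
Coding exons of C0J50_15525 and of the enclosing gene C0J50_15524, by distance in bases from the start of C0J50_15524, with the strand of each. Both exons of C0J50_15525 fall inside the longest intron of C0J50_15524, 2489 bases from the nearest exon.

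The enclosing gene had 7.07 FPKM in mandibular barbel, 13.1 FPKM in maxillary barbel and 26.7 FPKM in skin, the same order as C0J50_15525. C0J50_15525 stood above C0J50_15524 by 8.47-fold in mandibular barbel, 7.22-fold in maxillary barbel and 9.67-fold in skin, on the per-length scale. It was between 0.162-fold (kidney) and 1.16-fold (the library with the gill label) of C0J50_15524 in the other 12 libraries, with 0.954-fold in the library labelled brain and 0.179-fold in head kidney. Above C0J50_15524 among those 12 were also muscle, at 1.09-fold, and pancreas, at 1.04-fold, with both genes under 1 FPKM there. Over the 15 libraries the Spearman correlation of the 2 genes was 0.925 and the Pearson correlation on the log2(FPKM + 1) scale 0.886, given as a description over libraries that each share 1 preparation. The next chloride channel-like locus, C0J50_15527, did not share this order. It was highest in the library labelled gill, at 43.1 FPKM, and had 17.8 FPKM in the library labelled brain. C0J50_15523, a polynucleotide phosphatase/kinase of DNA repair, was highest in ovary at 56.2 FPKM, and C0J50_15522, an endonuclease domain-containing protein, in pancreas at 97.4 FPKM.

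Other XlCGF28.1-like loci also lay inside genes. Of the 204 loci, 27 (13.2%) fell whole within the span of another locus, against 2.46% of all loci. All 27 were on the strand opposite to the enclosing gene, as were 87.7% of all 617 loci that lie within another, and 1 overlapped a coding exon of it. Of these 27 loci, 21 were under 1 FPKM in every library. Among the 6 at 1 FPKM or more, C0J50_05125 lies in the gene for WD repeat and FYVE domain-containing protein 1, and had 6.98 FPKM in skin against 41.7 FPKM of its enclosing gene. Its Spearman correlation with that gene was 0.911 over 15 libraries. C0J50_20720, which lies in the gene for reelin, a secreted protein of brain layering, had 3.14 FPKM in head kidney, where reelin had 0.000104 FPKM, and a Spearman correlation of -0.036 with it. In their highest library 3 of the 6 stood above their enclosing gene, C0J50_15525 among them.

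Most other XlCGF28.1-like loci were low throughout. Of the 204 loci, 55 (27.0%) reached 1 FPKM in at least 1 library, against 85.2% of all genes, and 7 (3.43%) reached 5 FPKM, against 67.6% of all genes. Besides the pair, the loci that reached 5 FPKM were C0J50_22410, C0J50_03985, C0J50_16951, C0J50_05125 and C0J50_21236. C0J50_22410 had 13.8 FPKM in pituitary and at most 0.237 FPKM elsewhere. C0J50_21236 had 5.55 FPKM in heart and at most 0.654 FPKM elsewhere. The other 3 were highest in skin. C0J50_03985 had 3.58 FPKM in mandibular barbel, 2.38 FPKM in maxillary barbel and 7.86 FPKM in skin, with testis next at 2.08 FPKM. C0J50_16951 had 4.66 FPKM in mandibular barbel, 2.09 FPKM in maxillary barbel and 7.76 FPKM in skin, and at most 0.187 FPKM elsewhere. C0J50_05125 had 2.85 FPKM in mandibular barbel, 0.989 FPKM in maxillary barbel and 6.98 FPKM in skin, and at most 0.266 FPKM elsewhere. These 3 loci reached 5 FPKM in skin alone, and all 3 were higher in mandibular than in maxillary barbel, unlike C0J50_15525. Over the 53 other XlCGF28.1-like loci at 1 FPKM or more, 11 (20.8%) had skin and both barbels above the 12 other libraries, against 3.09% of all genes at that level. Loci such as C0J50_16951 and C0J50_05125 reached 1 FPKM only in skin or a barbel, the libraries then counted. The minimum level thus favoured this pattern in loci that are low elsewhere, and nothing is read from the 2 shares.

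The number of XlCGF28.1-like loci at 1 FPKM or more differed between libraries. It was 0 in ovary, 1 in liver and 1 in pancreas, and reached 26 in the library labelled gill, while that labelled brain had 14. It was 18 in mandibular barbel, 9 in maxillary barbel and 15 in skin, with 19 in heart, the most outside the libraries labelled brain and gill, and 17 in spleen. The share of all genes at 1 FPKM or more also differed, with 47.5% in ovary, 41.3% in liver, 39.7% in pancreas and 59.0% under the gill label. That share was 43.6% in mandibular barbel, 43.4% in maxillary barbel, 43.8% in skin, 54.5% in heart, 55.8% in spleen and 56.3% under the brain label. The summed level of the 202 loci beside the pair was 57.6 FPKM in mandibular barbel, 37.9 FPKM in maxillary barbel and 67.9 FPKM in skin, and over all libraries it ran between 4.53 FPKM in ovary and 82.8 FPKM in the library labelled gill. In both barbels, skin, spleen and the libraries labelled brain and gill, C0J50_04847 or C0J50_15525 alone thus exceeded the sum of all 202. The loci with other gastrula names had a different spread, between 11 loci at 1 FPKM or more in pancreas and 23 in pituitary, with 22 of the 34 in ovary.

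**Figure D5:**
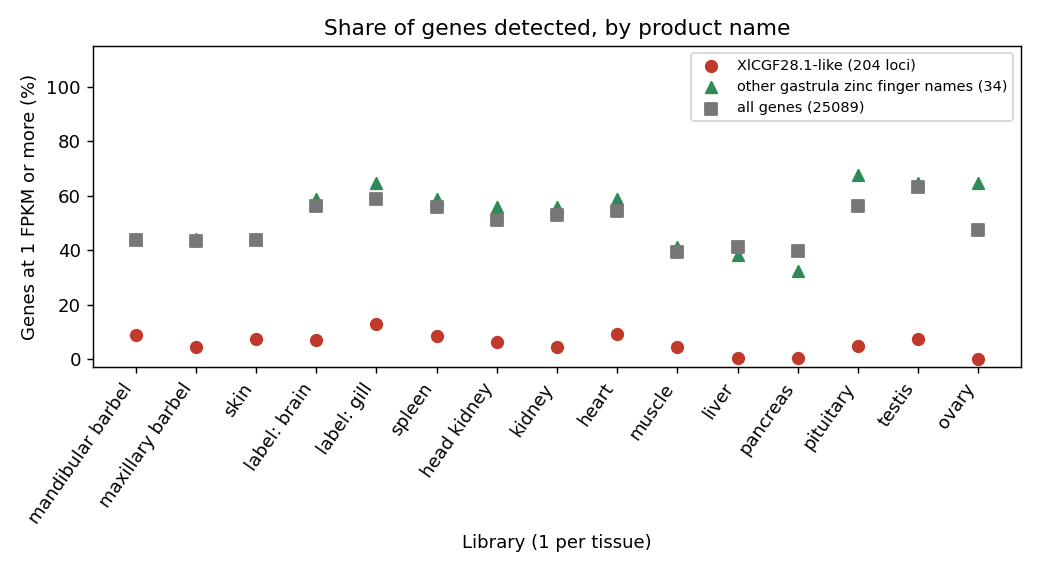
Percent of loci at 1 FPKM or more in each of the 15 libraries, for XlCGF28.1-like loci, loci with other gastrula zinc finger names and all genes, 1 point per library and group. XlCGF28.1-like loci run between 0 in ovary and 26 of 204 in the library labelled gill, below the other gastrula names in every library.

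None of the 202 other XlCGF28.1-like loci reached 5 FPKM in either barbel, so none entered the comparison between the barbels. The largest differences among them were small in level. C0J50_08111 had 2.68 FPKM in mandibular barbel and 0.276 FPKM in maxillary barbel. C0J50_23357 had 2.90 FPKM in mandibular barbel and 0.384 FPKM in maxillary barbel. C0J50_12479 had 2.56 FPKM in mandibular barbel and 0.474 FPKM in maxillary barbel, and C0J50_13462 had 0.000498 FPKM in mandibular barbel and 1.050 FPKM in maxillary barbel. Against skin, 3 of the 202 were compared in each barbel, with a median difference of -0.95 in mandibular barbel and -1.50 in maxillary barbel. All 3 reached 5 FPKM in skin alone, so the minimum level fixed the direction in advance and nothing is read from these medians. The medians over all genes compared were 0.10 for mandibular barbel and 0.01 for maxillary barbel, and after median ratios they were -0.11 for mandibular barbel and -0.12 for maxillary barbel. C0J50_05125 alone passed the rule, between maxillary barbel and skin.

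Of the 34 loci with the C2H2 domain and another gastrula name, 27 (79.4%) reached 1 FPKM in some library, against 85.2% of all genes, and 21 (61.8%) reached 5 FPKM, against 67.6%. Both shares were near those of all genes. The highest was C0J50_24557, XlCGF57.1-like, with 75.4 FPKM in mandibular barbel, 89.1 FPKM in maxillary barbel and 149.4 FPKM in skin, and between 1.83 FPKM in liver and 25.4 FPKM in testis in the others. C0J50_06146, also XlCGF57.1-like, had 14.1 FPKM in mandibular barbel, 11.2 FPKM in maxillary barbel and 26.5 FPKM in skin. C0J50_17325, XlCGF8.2DB-like, was highest in spleen at 39.2 FPKM, followed by kidney at 20.7 FPKM and head kidney at 20.4 FPKM. C0J50_06147, XlCGF8.2DB-like, reached 28.5 FPKM in the library with the gill label, and C0J50_22361, XlCGF57.1-like, had 26.3 FPKM in ovary and 9.49 FPKM in testis. C0J50_03502, XlCGF57.1-like, had 15.8 FPKM in the library labelled gill.

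Between the barbels, 6 of the 34 were compared and none passed the rule of size, which 0.946% of all genes compared did. They had a median difference of -0.12, against 0.06 over all genes compared. The largest was that of C0J50_05519, XlCGF57.1-like, with 1.84 FPKM in mandibular barbel and 6.12 FPKM in maxillary barbel. C0J50_05519 and C0J50_24573 reached 5 FPKM in maxillary barbel and not in mandibular barbel. The minimum level thus fixed their direction in advance, so nothing is read from the median between the barbels. Against skin, 10 of the 34 were compared in each barbel, and none passed the rule, which 6.23% of all genes did for mandibular barbel and 6.05% for maxillary barbel. All 10 were lower than in skin in both barbels, as were 2582 of 5842 genes for mandibular barbel and 2841 of 5771 for maxillary barbel. Their median difference was -0.83 in mandibular barbel and -0.79 in maxillary barbel, and the direction of both medians held under each rescaling of the libraries that was tried. Of the 10, C0J50_17325, C0J50_06147, C0J50_03502 and C0J50_22430 reached 5 FPKM in skin and in neither barbel. C0J50_05519 and C0J50_24573 reached it in skin but not in mandibular barbel. In those comparisons the minimum level fixed the direction in advance, so nothing is read from the direction or the medians.

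The genes whose levels over the 15 libraries were most like those of each of the pair were ranked by the Pearson correlation of log2(FPKM + 1), over 16948 genes. For C0J50_04847 no gene reached 0.8. The nearest was C0J50_16042, a hypothetical protein with a phytanoyl-CoA dioxygenase domain, at 0.786, which had 0.540 FPKM in mandibular barbel and 5.86 FPKM in spleen. C0J50_15245, sclerostin domain-containing protein 1, followed at 0.732, then C0J50_20432, a lysophospholipid acyltransferase, at 0.731, C0J50_13692, a BTB domain protein of the KCTD family, at 0.724, and C0J50_14725, a cyclin-dependent kinase inhibitor, at 0.707. For C0J50_15525, 442 genes reached 0.8 and 172 reached 0.9. The nearest was C0J50_03030, a hypothetical protein with transglutaminase domains, at 0.996. It had 20.6 FPKM in mandibular barbel, 31.2 FPKM in maxillary barbel and 44.5 FPKM in skin. The hypothetical protein C0J50_00600 followed at 0.994, then C0J50_06151, a type I keratin, at 0.994, C0J50_00599, named rapunzel 5, at 0.990, and C0J50_00480, cystatin B, a protease inhibitor, at 0.988. C0J50_06151 had 27.7 FPKM in mandibular barbel, 49.97 FPKM in maxillary barbel and 133.4 FPKM in skin. The correlations are descriptions over 15 libraries of unequal depth.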

How the data were processed

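Poly(A) RNA of 15 adult tissues was sequenced in paired-end libraries, per the labels' protocols. The deposited table holds FPKM per gene, made by the authors with StringTie 1.3.4d, per the submitters' processing notes. The sources used here do not give the aligner, the strand setting, the treatment of reads with several equal matches or the genome build. A deposited feature table gave positions, exons, product names and domains of 25122 loci on 2648 scaffolds; 25064 of the 25089 genes were found in it. The 204 XlCGF28.1-like loci share a product name and mostly the same domains, but how alike their sequences are was not measured, so their levels are uncertain where reads could match several of them. No sequence was used.

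The FPKM values were used as deposited. Their sums ran between 239905 (skin) and 738341 (pancreas) per library. The total number of fragments is unknown; an estimate of what 1 fragment is worth was taken from the spacing of FPKM times coding length in kilobases at values under 1. Fragment numbers so derived are approximate and cover counting error only. Differences are of log2(FPKM + 1), with a pseudocount of 1, which understates the change of low genes. The difference was counted at 2 or more with the higher library at 5 FPKM or more; detection was 1 FPKM. No test was run, since each tissue has 1 library. The programs were checked on simulated data.

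The pair, the lists and the rules were chosen with earlier results of these data known. The genes named are the pair, XlCGF28.1-like loci, 5 loci on either side, the 5 genes most like each of the pair and cell type markers. Among the other gastrula loci they are the 5 with the largest difference between the barbels and the 5 highest in any library. The 5 of those loci with the largest difference of the mean barbel from skin are named as well. Of the 5 largest differences of each comparison, only some are named. Of 32 marker genes in 11 lists, 30 were matched. Where several loci matched a marker, the locus with the highest mean FPKM stands for it. Alternatives were another pseudocount, other minimum levels, rescaling by median ratios or to a common sum, a 10-fold call, other sets of libraries and the Spearman correlation. Calculations used Python 3.11.15, numpy 2.4.6, pandas 2.3.3 and scipy 1.17.1; figures used matplotlib 3.10.9.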

Additional observations from a re-analysis of the deposited data

How the results depend on the processing

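The directions of the differences of C0J50_04847 and C0J50_15525 between the barbels and against skin, and which of them passed the rule of size, held under a pseudocount of 0.1, rescaling by median ratios and rescaling to a common sum. The number of genes counted as different between mandibular and maxillary barbel was 52, and it was 82 with a pseudocount of 0.1, 82 after median ratios and 195 with every library set to 1 sum; with no minimum level it was 62. The cause was not tested. Under the common sum, 2 of the other gastrula loci passed the rule between the barbels and 3 between mandibular barbel and skin, against 0 for each in the values as deposited. The common sum was larger than the deposited sum of every library, 257613 in mandibular barbel, 250819 in maxillary barbel and 239905 in skin. All values rose under it, while the minimum of 5 FPKM and the pseudocount of 1 stayed. The rule was thus looser, and counts under the common sum are not like for like. C0J50_04847 in mandibular barbel stood above spleen by 1.80 on the log2(FPKM + 1) scale. That is short of the 5-fold used to call a gene restricted to a tissue. After median ratios the library labelled gill came next, and the gap to it was 2.62, past the 5-fold. The cause was not tested. The median number of XlCGF28.1-like loci detected per library was 13 at 1 FPKM, 24 at 0.5 FPKM and 1 at 5 FPKM, and that of the other gastrula names was 19 at 1 FPKM and 4 at 5 FPKM. Ranking by Spearman correlation gave 5 other nearest genes for each of the pair, sharing 0 of 5 with the Pearson lists. No paired analysis was possible because each tissue has 1 library; for the same reason no replicate could be left out. Depth limits the values near 0 in muscle, skin and both barbels most.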

Other observations

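The reverse transcriptase domain was also listed for 246 loci with other product names, 219 of them hypothetical proteins. Of these, 55 (22.4%) reached 1 FPKM in some library and 28 (11.4%) reached 5 FPKM, against 27.0% and 3.43% of XlCGF28.1-like loci. The number at 1 FPKM or more was 12 in mandibular barbel, 13 in maxillary barbel and 11 in skin, and over all libraries it ran between 10 in ovary and 35 in the library labelled gill. The highest was C0J50_22062, annotated as fucose-1-phosphate guanylyltransferase, an enzyme that activates fucose for glycosylation, with 73.5 FPKM in mandibular barbel, 64.8 FPKM in maxillary barbel and 70.6 FPKM in skin. In testis the highest was C0J50_16320, at 29.9 FPKM.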
